A study of Mus musculus with 6 samples.

Results

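The 5p arms of the miR-290 cluster are the 7 mature miRNAs mmu-miR-290a-5p, mmu-miR-291a-5p, mmu-miR-292a-5p, mmu-miR-291b-5p, mmu-miR-293-5p, mmu-miR-294-5p and mmu-miR-295-5p (the species prefix is dropped from here on), cut from the 5′ side of 7 neighbouring hairpins on mouse chromosome 7. They were chosen by name, as the listed 5p arms of these hairpins, and make up 7 of the 1907 mature miRNAs listed in the count table. Small RNA was sequenced from mouse embryonic stem cells (ESCs), pluripotent cells that can be kept dividing in culture, to compare cells held in the ground state with cells grown in serum. Each of 3 media was represented by 2 libraries, from the ESC lines RB18 and RB20, and every library was made from a pool of 3 separately grown cultures of its line.

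Both lines came from C57BL/6 mice and were first established in R2i with LIF, so serum and 2i cells had been moved from that medium and then passaged at least 10 times. All cells grew without feeders on gelatin with LIF, a cytokine that sustains self-renewal, at 1000 U/ml. Serum medium held 15% fetal bovine serum and no inhibitor. The serum-free 2i medium held 1 µM PD0325901, a MEK inhibitor, and 3 µM CHIR99021, a GSK3 inhibitor. The serum-free R2i medium held 1 µM PD0325901 and 10 µM SB431542, an inhibitor of the TGF-beta type I receptor. With 2 lines and pooled cultures, p-values measure the spread between these libraries alone, and serum differed from the other media in several components whose parts cannot be told apart.

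A miRNA hairpin is cut by Drosha and Dicer into a duplex whose strands are named 5p and 3p, and usually the strand that is kept in an Argonaute protein accumulates while its partner is degraded. The transcript of the miR-290 cluster is the main miRNA source of mouse ESCs. Its best known products are 3p arms with the AAGUGC seed, which repress brakes on the G1 to S transition such as Cdkn1a. The 5p arms come from the same transcript but carry other seeds, the bases from 2 to 8 by which a miRNA recognises its targets.

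The mature sequences below are shown because the seed and the few bases outside it set apart the members whose levels are compared here. They are from RefSeq on GRCm38.p6, run 5′ to 3′ and have bases 2 to 8 in capitals.
miR-290a-5p: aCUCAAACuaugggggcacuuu
miR-292a-5p: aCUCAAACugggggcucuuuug
miR-293-5p: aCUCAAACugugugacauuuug
miR-294-5p: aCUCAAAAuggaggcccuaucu
miR-295-5p: aCUCAAAUguggggcacacuuc
miR-291a-5p: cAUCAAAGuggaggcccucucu
miR-291b-5p: gAUCAAAGuggaggcccucucc

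All 7 members were found in the RefSeq table and all were 22 bases long. miR-290a-5p, miR-292a-5p and miR-293-5p shared the seed CUCAAAC, and miR-294-5p and miR-295-5p had the same bases from 2 to 7 but A or U at base 8. miR-291a-5p and miR-291b-5p shared the seed AUCAAAG and had 20 of 22 bases in common. Counted from the 5′ end of miR-291a-5p, they differed by C1G and U22C, so that a read lacking both end bases could not be assigned to either from its sequence. Outside the members, miR-292b-5p was the only one of 1679 mature miRNAs searched that had a member's seed, that of miR-294-5p, and it had at most 1 count in a library.

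For contrast, 3p partners are shown from the cluster's hairpins with the highest and the lowest ratio of 5p to 3p, and from the miR-291 pair. The partner miR-293-3p, not shown, has the seed GUGCCGC. Those shown carry seeds that begin with AAGUGC.
miR-290a-3p: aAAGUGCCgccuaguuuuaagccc
miR-291a-3p: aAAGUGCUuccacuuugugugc
miR-291b-3p: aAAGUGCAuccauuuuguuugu
miR-295-3p: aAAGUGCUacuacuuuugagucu

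The letters AAAGUG, which open these 3p arms, also stood at bases 5 to 10 of miR-291a-5p and miR-291b-5p, where they overlap the last 4 bases of the seed and 2 bases after it. The other 5 members did not hold them. This is a match of letters and not a measured target preference. The 7 members lie on the plus strand of chromosome 7 within 2162 bases, from miR-290a-5p at chr7:3218639-3218660 to miR-295-5p at chr7:3220779-3220800. Counted from the start of miR-290a-5p and after miR-291a-5p, miR-292a-5p starts 561 bases downstream, miR-291b-5p 855, miR-293-5p 1717, miR-294-5p 2016 and miR-295-5p 2140. miR-290a-5p overlaps no protein-coding gene in GENCODE M21, whereas the other 6 lie opposite an untranslated exon of Nlrp12, an inflammasome-related gene on the minus strand.

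The 6 libraries held 1041858 to 3593356 miRNA counts, and 571 of the 1907 listed miRNAs, with all 7 members among them, passed the filter on low counts. The least abundant member, miR-294-5p, still had between 1264 and 3638 counts in a library. Counting error was not estimated for single members, and small differences between libraries or members may lie within it. Among ESC-linked miRNAs outside the cluster, the summed 3p arms of miR-302 and miR-367 reached 1949 to 3063 CPM (miRNA counts scaled to a common library size with TMM factors) in serum, 3820 to 6284 in 2i and 7768 to 16228 in R2i. All 5 of these arms were detected in the libraries. Of the 4 blood markers, miR-223-3p was at 0 in every library. The blood marker miR-142a-5p was well detected, from 277 CPM in R2i RB20 to 4436 CPM in 2i RB18. The 3 muscle markers summed to at most 79.4 CPM, in serum. The neural markers summed to 434 to 765 CPM, the 4 blood markers to 322 to 4789 CPM and the liver marker to at most 3.47 CPM over the libraries. The 5 fibroblast or mesenchyme markers summed to 1431 to 2047 CPM in serum, 3331 to 3653 in 2i and 2415 to 2423 in R2i. Most of each sum was miR-143-3p, at 1318 to 1877 CPM in serum, 3114 to 3380 in 2i and 2120 to 2209 in R2i. The part of these markers in the results below was not tested.

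The 7 members together took a larger share of all miRNA counts in serum than in either ground-state medium. The share was 8.41% in RB18 and 9.42% in RB20 in serum, 6.62% and 6.74% under 2i, and 8.18% and 7.04% under R2i. The smallest library, R2i RB18, had a 95% Wilson interval from 8.13% to 8.23%, which covers counting error only. Both serum libraries lay above the other 4, and serum RB18 and R2i RB18 were close together. The difference lay mostly in miR-292a-5p. Its own share was 3.46% in RB18 and 4.75% in RB20 in serum, 2.10% and 2.35% under 2i, and 3.18% and 2.56% under R2i. The mean difference between ground state (2i and R2i) and serum was -1.76 percentage points, with an exact two-sided permutation p of 0.133, the smallest that 2 against 4 libraries allow.

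Summed over the cluster, the 5p arms were the minor product, since they gave 16.0% to 19.3% of the cluster's counts in 5 libraries and 28.1% in serum RB20. The 3p arms held the rest, and most of it was miR-295-3p. That arm alone took 15.4% to 25.8% of all miRNA counts. It measured 171038 CPM in serum RB20 and 224733 to 258231 CPM in the other 5 libraries. In serum RB20 the 3p arms summed to 267449 CPM, against 309605 to 348277 CPM in the other 5 libraries, while its summed 5p arms were the highest of all at 104731 CPM.

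Levels of single members spanned more than an order of magnitude, from 971 CPM for miR-294-5p to 52850 CPM for miR-292a-5p, both in serum RB20. All members have the same length, so no length correction was needed, but differences in ligation and amplification between sequences were not measured, and levels of different members, and of the arms of a hairpin, are compared as sequenced counts. miR-292a-5p ranked between place 4 and place 12 among all listed miRNAs, miR-291a-5p between 6 and 8, and miR-293-5p between 18 and 20. The lesser members ranked from 34 to 64 for miR-291b-5p, from 36 to 50 for miR-290a-5p, from 62 to 75 for miR-295-5p and from 70 to 85 for miR-294-5p.

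The order of the members was partly the same in all media. In every library miR-293-5p held place 3 among the members, miR-295-5p place 6 and miR-294-5p the last place. The ranges of miR-291a-5p and miR-293-5p did not overlap, nor did those of miR-293-5p and miR-291b-5p, or those of miR-290a-5p and miR-295-5p. miR-292a-5p and miR-291a-5p exchanged the first place: miR-292a-5p was the higher in both serum libraries and in R2i RB18, and miR-291a-5p in the other 3. miR-290a-5p was above miR-291b-5p in both serum libraries and below it in all 4 ground-state libraries. miR-295-5p exceeded miR-294-5p in 6 of 6 libraries, yet the ranges of the pair overlapped over the libraries. In R2i RB18 they were almost level, with 1275 and 1264 counts.

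**Figure D1:**
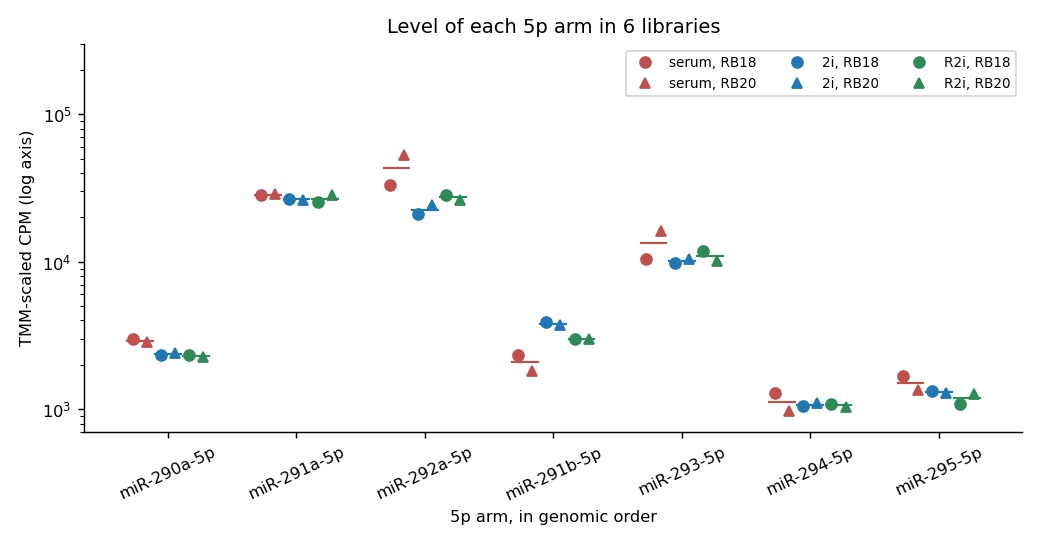
Level of each 5p arm in TMM-scaled CPM (log axis) in the 6 libraries, coloured by medium, with circles for RB18, triangles for RB20 and a line at the mean of each medium. miR-291a-5p stayed between 25330 and 28649 CPM, whereas miR-291b-5p was lowest in the serum libraries and miR-292a-5p highest in them.

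miR-292a-5p was the member with the widest range, 2.52-fold from the lowest to the highest library. Its level was 33083 CPM in RB18 and 52850 CPM in RB20 in serum, 20985 and 24131 CPM in 2i, and 28425 and 26355 CPM in R2i. Both serum libraries lay above the other 4, serum RB20 by far, and both R2i libraries lay above both 2i libraries. In 2i the log2 fold change against serum was -0.93 ± 0.27 (SE), with an adjusted p of 0.0231 in edgeR's quasi-likelihood test. In R2i it was -0.65 ± 0.27, with an adjusted p of 0.0931. The log2 difference of 2i from R2i was -0.28, with a 95% interval from -0.91 to 0.35.

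Within RB18, the log2 level of miR-292a-5p in 2i differed from that in serum by -0.66, and in R2i by -0.22. Within RB20 these differences were -1.13 and -1.004. The direction was the same in both lines, and the size depended on the serum library taken as the reference.

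miR-291b-5p differed from serum in the opposite direction. It measured 2345 CPM in RB18 and 1811 CPM in RB20 in serum, 3875 and 3730 CPM in 2i, and 2980 and 3007 CPM in R2i. The media did not overlap: serum was lowest, R2i intermediate and 2i highest in both lines. The log2 fold change in 2i against serum was 0.87 ± 0.23 (SE), with an edgeR adjusted p of 0.015. In R2i it was 0.53 ± 0.23, with an adjusted p of 0.102, and the log2 difference of 2i from R2i was 0.35 with a 95% interval from -0.18 to 0.87.

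Within RB18, the log2 level of miR-291b-5p was above serum by 0.72 in 2i and by 0.35 in R2i, and within RB20 by 1.04 and 0.73. With the 2 ground-state media combined, the log2 fold change against serum was 0.70 for miR-291b-5p (95% interval 0.23 to 1.17) and -0.79 for miR-292a-5p (95% interval -1.32 to -0.26). The edgeR adjusted p-values were 0.022 and 0.0217. Both intervals left out 0, and both included changes of less than 2-fold.

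No member was called at the limits used here, an adjusted p below 0.01 together with the study's limit of a change of more than 2-fold. In edgeR 0 of 7 were called in 2i against serum, where 34.2% of the 571 tested miRNAs were, and 0 of 7 in R2i against serum, where 30.6% were. Likewise 0 of 7 were called in 2i against R2i (0.35% of those tested) and 0 of 7 in ground state against serum (37% of those tested). DESeq2 on the counts and limma on the deposited log2 values also called 0 members in each of these comparisons. At an unadjusted p below 0.05 edgeR passed 2 members in 2i against serum (57.6% of those tested), namely miR-291b-5p and miR-292a-5p, 1 in R2i against serum (49.6%), namely miR-292a-5p, 0 in 2i against R2i (18.2%) and 2 in ground state against serum (57.6%). An adjusted p below 0.05 with no limit on the fold also passed miR-291b-5p and miR-292a-5p in 2i (51.1% of those tested) and in ground state against serum (51.3%), and no member in R2i against serum (41.7%) or 2i against R2i (0.525%).

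The values for miR-291b-5p and miR-292a-5p depended on which serum library was included. Without serum RB18, edgeR called miR-291b-5p at a log2 fold change of 1.18 (adjusted p = 0.00405) and miR-292a-5p at -1.12 (adjusted p = 0.00464) in 2i against serum. In ground state against serum it then called miR-291b-5p alone, at 1.01 (adjusted p = 0.00553). Without serum RB20, both values were smaller. For miR-292a-5p the log2 fold change was then -0.61 in 2i (edgeR adjusted p = 0.0482), -0.32 in R2i (adjusted p = 0.259) and -0.46 in ground state against serum (adjusted p = 0.0769). For miR-291b-5p it was 0.64 in 2i (edgeR adjusted p = 0.0349), 0.30 in R2i (adjusted p = 0.254) and 0.47 in ground state (adjusted p = 0.0682), so that neither passed an adjusted p below 0.05 in ground state. The lone serum library was in each case assumed to vary like the other groups.

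**Figure D2:**
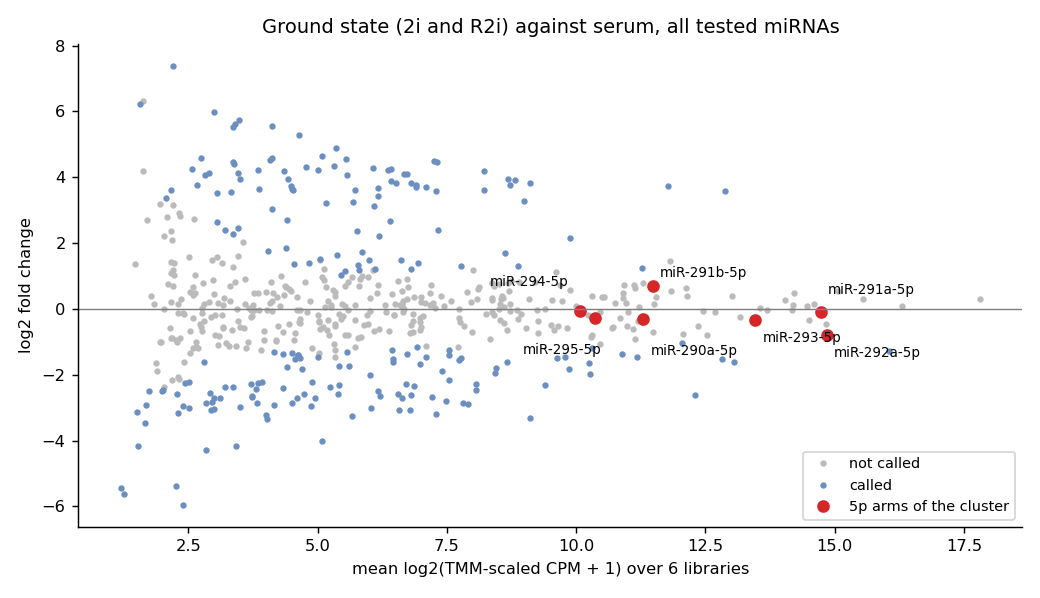
Log2 fold change of ground state (2i and R2i) against serum on the vertical axis and mean log2(TMM-scaled CPM + 1) on the horizontal axis for the 571 tested miRNAs, with called miRNAs in blue, the rest in grey and the 7 members in red. The members lay between -0.79 and 0.70, at the abundant end of the plot, and none was called.

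miR-291a-5p, which shares its seed with miR-291b-5p, had the steadiest level of the members. It measured 28528 and 28649 CPM in serum, 26800 and 26159 CPM in 2i, and 25330 and 28293 CPM in R2i, for RB18 and RB20 in turn. The serum libraries were the highest, but the highest of all was only 1.13-fold above the lowest. The log2 fold change was -0.11 in 2i and -0.09 in R2i against serum, and for ground state against serum the 95% interval ran from -0.51 to 0.31.

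The proportion of the miR-291 pair differed between the media. miR-291b-5p amounted to 8.22% and 6.32% of the miR-291a-5p counts in serum, to 14.5% and 14.3% under 2i, and to 11.8% and 10.6% under R2i, in the order RB18, RB20. The 3 media did not overlap, though each had only 2 libraries. The 3p partners, which differ at 4 bases, gave 19.4% and 23.9% in serum, 36.8% and 38.5% under 2i, and 26.0% and 26.9% under R2i, again without overlap.

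miR-290a-5p, the first member of the cluster, was a little lower in both ground-state media than in serum. Its level was 2973 and 2859 CPM in serum, 2350 and 2417 CPM in 2i, and 2323 and 2276 CPM in R2i. The serum libraries lay above the other 4, and the lines were close to each other in every medium. The log2 fold change was -0.29 ± 0.21 in 2i against serum (edgeR adjusted p = 0.276) and -0.34 ± 0.21 in R2i (adjusted p = 0.229). The 95% intervals, from -0.78 to 0.19 in 2i and from -0.83 to 0.14 in R2i, both included no change.

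miR-293-5p measured 10393 and 16238 CPM in serum, 9864 and 10436 CPM in 2i, and 11884 and 10089 CPM in R2i. Serum RB20 alone was high and serum RB18 lay among the ground-state libraries, so that the media overlapped. The log2 fold change was -0.39 ± 0.27 in 2i (edgeR adjusted p = 0.254) and -0.28 ± 0.27 in R2i (adjusted p = 0.445). Within RB18, the log2 level differed from serum by -0.08 in 2i and 0.19 in R2i, and within RB20 by -0.64 and -0.69.

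The last members of the transcript, miR-294-5p and miR-295-5p, were the least abundant. miR-294-5p measured 1282 and 971 CPM in serum, 1045 and 1108 CPM in 2i, and 1084 and 1041 CPM in R2i. The serum libraries were at the top and the bottom of this range, and the 95% interval of the log2 fold change of ground state against serum ran from -0.55 to 0.40. miR-295-5p measured 1671 and 1352 CPM in serum, 1323 and 1291 CPM in 2i, and 1094 and 1276 CPM in R2i. Both serum libraries were above the rest, serum RB20 narrowly, and the log2 fold change was -0.21 in 2i (edgeR adjusted p = 0.49) and -0.35 in R2i (adjusted p = 0.273).

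Over the 7 members the median log2 fold change was -0.21 in 2i and -0.28 in R2i against serum, where the medians over all 571 tested miRNAs were -0.03 and -0.07. In both comparisons, which share the serum libraries, miR-291b-5p was the only member with a positive value under TMM scaling. Scaling by library totals put miR-291a-5p and miR-294-5p at 0.01 in R2i, and TMM factors computed without the cluster put miR-294-5p at 0.00 in 2i. For 2i against R2i the median was 0.02 over the members and 0.01 over all tested. The serum libraries lay above all ground-state libraries for 4 members (32.4% of those tested) and below them for miR-291b-5p (29.1%). For miR-293-5p and miR-294-5p they overlapped. Without overlap in either direction were thus 5 of 7 members and 61.5% of all tested miRNAs. The highest library was less than 2-fold above the lowest for 5 of the 7 members, the exceptions being miR-291b-5p and miR-292a-5p, and for 24.2% of all tested miRNAs. The tested miRNAs include ones with far fewer counts than any member, and these shares were not matched for level.

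**Figure D3:**
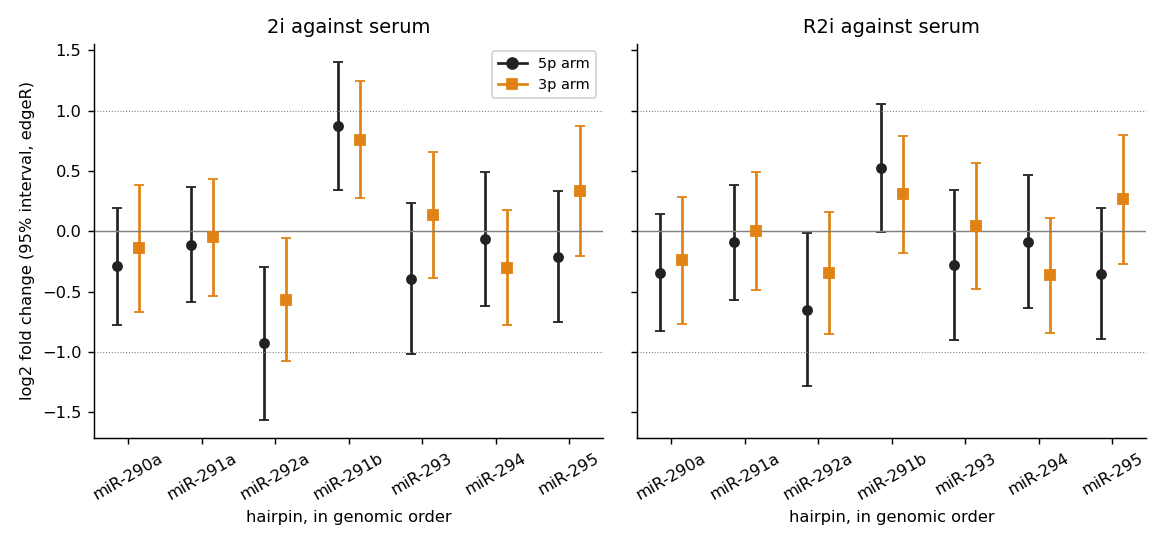
Log2 fold change with its 95% interval from edgeR for the 5p arm (black circles) and 3p arm (orange squares) of each hairpin, in 2i against serum (left) and R2i against serum (right), with dotted lines at a 2-fold change. The 2 arms of miR-291b lay above 0 and the 2 arms of miR-292a below 0 in both panels, and no arm was called.

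The 3p partners gave values of the same sign for the hairpins whose 5p arms differed most. In 2i against serum the log2 fold change was 0.76 for miR-291b-3p (edgeR adjusted p = 0.0177) and -0.57 for miR-292a-3p (adjusted p = 0.0623). No 3p arm was called in any of the 4 comparisons (0 of 7 in edgeR), and 2, 0, 0 and 2 passed an unadjusted p below 0.05 in 2i, in R2i, in 2i against R2i and in ground state against serum. miR-295-3p, the most abundant arm of the cluster, had a positive log2 fold change of 0.30 in ground state against serum (edgeR adjusted p = 0.247), while that of miR-295-5p was -0.28 (adjusted p = 0.272).

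Summed by seed, the members with CUCAAAC measured 59198 ± 18030 CPM in serum (mean ± SD, n = 2), 35092 ± 2676 CPM in 2i and 40676 ± 2766 CPM in R2i. The spread in serum came from RB20, at 71947 CPM against 46449 CPM in RB18, and both serum libraries were above all others. The members with AUCAAAG measured 30667 ± 291.9, 30282 ± 557 and 29805 ± 2114 CPM in serum, 2i and R2i. These sums differed by less than the spread between the R2i libraries. Within the sum, mean miR-291b-5p was 2078 CPM in serum and 3803 CPM in 2i, while mean miR-291a-5p was 28589 and 26480 CPM.

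The make-up of the 5p counts shifted accordingly. miR-292a-5p held 41.2% and 50.5% of the members' counts in serum, 31.7% and 34.8% under 2i, and 38.9% and 36.4% under R2i. miR-291a-5p held 35.5% and 27.4% in serum, 40.5% and 37.8% under 2i, and 34.6% and 39.1% under R2i. miR-291b-5p held 2.92% and 1.73% in serum, 5.85% and 5.38% under 2i, and 4.08% and 4.16% under R2i. The serum libraries were thus the highest for miR-292a-5p and the lowest for miR-291b-5p, and the media overlapped for miR-291a-5p.

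**Figure D4:**
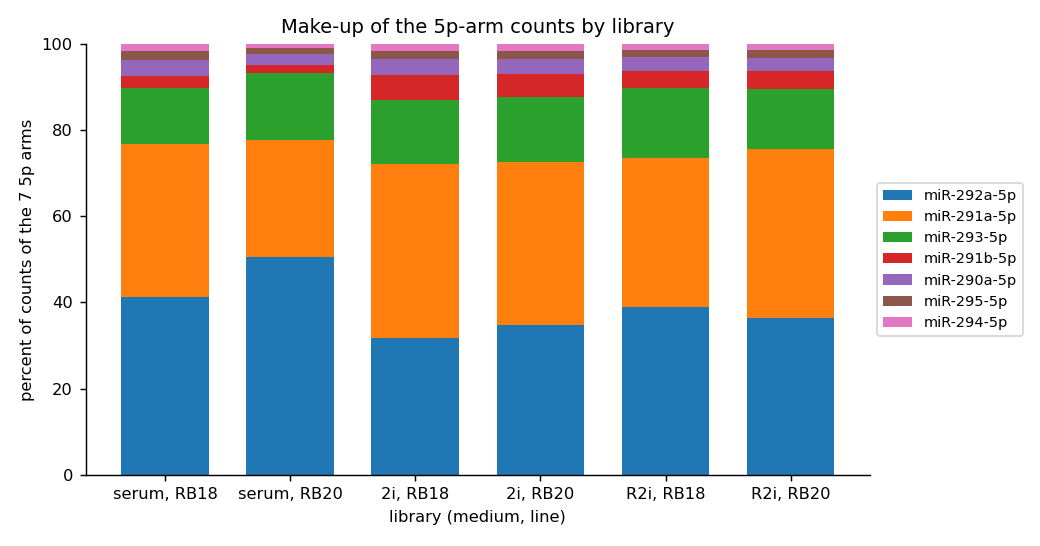
Percent of the summed counts of the 7 5p arms held by each member in each library, as stacked bars from 0 to 100. miR-292a-5p held 50.5% in serum RB20 and 31.7% in 2i RB18, the ends of its range, and miR-293-5p between 12.9% and 16.3% in all libraries.

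The balance between the arms of a hairpin was measured as the ratio of the 5p count to the 3p count, which does not depend on library depth. Over the 7 hairpins it spanned far more than between libraries, although the range of miR-291b overlapped those of miR-292a and miR-293. The 5p arm was in excess in all 6 libraries for miR-290a, by 6.72-fold to 8.11-fold, and for miR-291a, by 1.82-fold to 2.31-fold. The 3p arm was in excess in all 6 libraries for miR-291b, miR-293, miR-294 and miR-295, by 19.3-fold to 26.8-fold for miR-294 and by 126-fold to 205-fold for miR-295. For miR-292a neither arm led throughout, as the 5p arm was the higher in serum RB20 and R2i RB18 and the 3p arm in the other 4 libraries.

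The hairpins miR-291a and miR-291b, whose 5p arms differ at 2 bases and 3p arms at 4, thus had opposite leading arms. The ratio was 1.82 or more for miR-291a and 0.869 or less for miR-291b in each library, with the limit that reads of their 5p arms can be told apart only at the end bases. Across all 178 hairpins with both arms measured, the mean log2 ratio of 5p to 3p was above 0 in 103, and the median was 0.92. By the same measure miR-290a was exceeded by 29.2% of hairpins, 14.04% lay below miR-294 and 2.25% below miR-295.

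**Figure D5:**
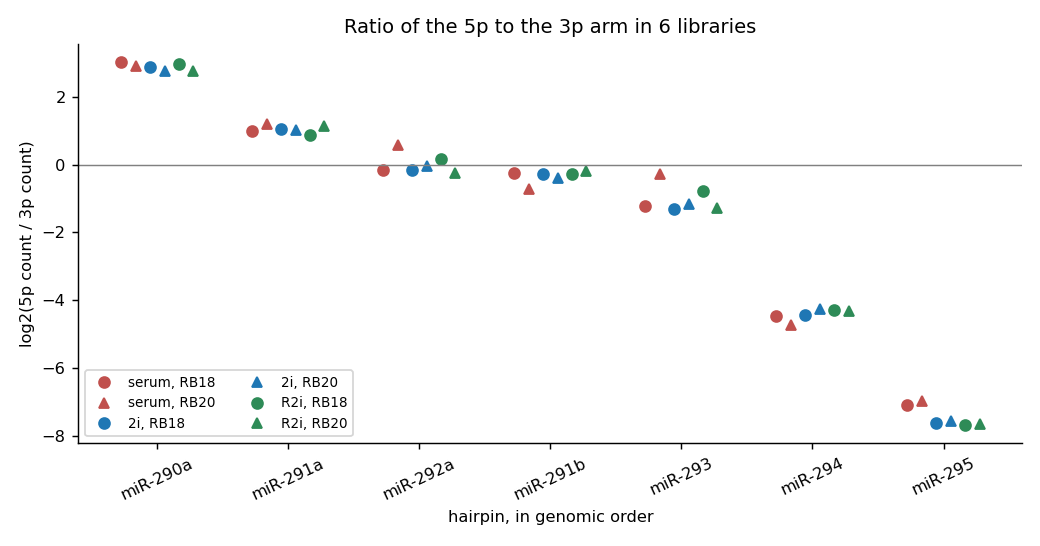
Log2 of the 5p count over the 3p count for each hairpin in the 6 libraries, coloured by medium, with circles for RB18 and triangles for RB20. miR-290a lay near 3 and miR-295 below -6.9 in all libraries, and the serum RB20 values of miR-292a and miR-293 stood above the other libraries of those hairpins.

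The arm ratio of miR-295 had the largest change between serum and the ground state among the 7 hairpins when the lines were averaged, though within RB20 it was -0.62 on the log2 scale against -0.96 for miR-293 and -0.74 for miR-292a. Its log2 value was -7.09 in RB18 and -6.98 in RB20 in serum, -7.61 and -7.57 under 2i, and -7.68 and -7.64 under R2i. Both serum libraries lay above the other 4, and the lines were close in every medium. The log2 change of the ratio in ground state against serum was -0.59 ± 0.21 (SE), with a limma p of 0.0324 before and 0.562 after adjustment over 178 hairpins. In 2i it was -0.55 (limma adjusted p = 0.589) and in R2i -0.62 (adjusted p = 0.651).

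The ratio of miR-294 also did not overlap between the media, being lower in both serum libraries, with log2 values of -4.46 and -4.74, than in the ground state, where it lay between -4.44 and -4.27. The gap between serum RB18 and 2i RB18 was only 0.02. These were 2 of 7 hairpins without overlap, and 20.8% of the 178 hairpins had none. In limma 0 of 7 and 0 of all 178 ratios (0%) were called at an adjusted p below 0.05 in each of the 4 comparisons, and edgeR's test of differential arm usage called 0 of the 7 as well. At an unadjusted p below 0.05 limma passed miR-295 in R2i and in ground state against serum, where it passed 6.74% and 8.43% of all ratios, and no member in 2i against serum (6.18%) or in 2i against R2i (2.81%). The log2 changes of the other 6 ratios in ground state against serum ran from -0.39 for miR-293 to 0.27 for miR-294.

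Serum RB20 stood apart for miR-292a and miR-293, and in the opposite direction for miR-291b, which lies between them. For miR-291b the ratio of 5p to 3p was 0.613 in serum RB20, the lowest of all libraries, and 0.846 in serum RB18. For miR-292a and miR-293 the ratio was 1.504 and 0.832 in serum RB20, where serum RB18 had 0.893 and 0.432. On the log2 scale the lines differed in serum by 0.75 and 0.95, in 2i by 0.12 and 0.13, and in R2i by -0.43 and -0.49, as RB20 minus RB18. Over all hairpins 54.5% differed by more than 0.5 between the lines in serum, 27% in 2i and 38.8% in R2i, so that such steps were common. Without the serum RB20 library, the change of the arm ratio in ground state against serum turned from -0.29 to 0.08 for miR-292a and from -0.39 to 0.08 for miR-293, as did the smaller changes of miR-291a, from -0.08 to 0.02, and of miR-291b, from 0.18 to -0.05.

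For 6 of the members, miR-291a-5p being the exception, the levels of the lines also differed most in serum. RB20 exceeded RB18 there by 0.68 for miR-292a-5p and 0.64 for miR-293-5p on the log2 scale, and RB18 exceeded RB20 for miR-290a-5p, miR-291b-5p, miR-294-5p and miR-295-5p. No member differed by more than 2-fold between the lines in any medium, which 15.8% of tested miRNAs did in serum, 7.01% in 2i and 9.46% in R2i. Each of these line comparisons rests on 1 library per line, and the shares of all tested miRNAs were again not matched for level.

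Of the 557 tested miRNAs outside the cluster, those whose log2 levels followed the log2 sum of the 7 members most closely over the 6 libraries were miR-3068-5p (Pearson r = 0.994), miR-101a-3p (0.989), miR-92a-3p (0.986), miR-181a-1-3p (0.984) and miR-30a-5p (0.977). All 5 were highest in serum RB20, as the members' sum was. With 6 points that share libraries and scaling, these values are a description of likeness. miR-92a-3p, a product of the miR-17 family of clusters and the most abundant of the 5, measured 85647 and 162397 CPM in serum, 43661 and 44085 CPM in 2i, and 63085 and 58684 CPM in R2i.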

How the data were processed

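Small RNA from 6 ESC libraries was sequenced on Illumina instruments. Per the submitters' processing notes, the tools were FastQC 0.11.5, cutadapt 1.3, Bowtie 1.1.2 and featureCounts 1.5, with genome build mm10. How reads matching several miRNAs were counted is not given in the sources used here. The authors deposited raw counts per mature miRNA and a table of log2 values. The deposited log2 values equal log2(count / DESeq2 size factor + 1) within 0.005 over 1233 miRNAs, and were used in 1 alternative.

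From the counts, edgeR 4.0.16 (R 4.3.3) fitted a quasi-likelihood model with TMM scaling and 1 coefficient per medium to the 571 miRNAs that passed filterByExpr (minimum count 10, minimum total 15). Calls needed a Benjamini-Hochberg adjusted p below 0.01 over all 571 and a change above 2-fold. Ground state against serum used the mean of the 2i and R2i coefficients. The biological coefficient of variation was 24.6%. Arm ratios were log2((5p + 0.5) / (3p + 0.5)) of 178 hairpins, fitted with limma 3.58.1 and called at an adjusted p below 0.05. DESeq2 1.42.0, other scalings, filters and pseudocounts, the cell line as a block and leaving out each library were alternatives. Library totals ran from 1041858 to 3593356 counts.

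The replicate numbers are the cell lines, so they pair the samples. Deviations of same-numbered libraries from their group means correlated at r = 0.21 between serum and 2i, -0.13 between serum and R2i and 0.25 between 2i and R2i, over 571 miRNAs. The main design left the line out, since the study merged the lines.

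All 7 members and their 3p partners were named whatever their values, with the 5 miRNAs nearest in pattern and summed markers of ESCs, fibroblasts, neural, muscle, blood and liver cells. Members and lists were chosen with earlier results of these data known. On simulated counts for ground state against serum (546 miRNAs tested), edgeR recovered 187 of 193 miRNAs changed 4-fold and called 1 unchanged miRNA. On simulated arm ratios of 178 hairpins with a common spread, limma recovered 50 of 50 changed 4-fold and called 1 unchanged. The largest arm ratio change among the 7 cluster hairpins was -0.59 on the log2 scale in ground state against serum. Neither simulation measured the recovery of changes smaller than 4-fold. The sequence of miR-292a-3p was not used here.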

Additional observations from a re-analysis of the deposited data

Results flagged for a closer look

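The log2 difference of miR-294-5p from serum had opposite signs in the cell lines. In RB18 it averaged -0.27 over 2i and R2i, with -0.29 and -0.24 in the single media, whereas in RB20 it averaged 0.15, with 0.19 and 0.10. It was singled out because both ground-state libraries of a line moved one way and both of the other line the opposite way. The difference between the lines was not tested, and each line has 1 serum library as its reference.

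The log2 ratio of 5p to 3p of miR-291b met the same rule, although its mean change from serum was very small in RB18, at -0.044, against 0.40 in RB20. The RB18 values were -0.05 in 2i and -0.04 in R2i, and those of RB20 were 0.30 and 0.50. Mean changes in RB18 and RB20 lay further apart for miR-292a, at 0.16 and -0.74, and for miR-293, at 0.17 and -0.96. These were not singled out because their 2i and R2i values within RB18 had opposite signs. The differences between the lines were not tested here either.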

How the results depend on the processing

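With no fold limit and an adjusted p below 0.05, 2 members (miR-291b-5p and miR-292a-5p) passed in 2i against serum and 2 in ground state against serum. Leaving out 1 library gave 0 to 2 called members in 2i against serum and 0 to 1 in ground state against serum, and serum RB18 was the library whose absence gave the calls. With the cell line as a replicate block, 0 members were called in each comparison, and the block took the count over all miRNAs in 2i against R2i from 2 to 0. That count was 14 with DESeq2, 25 without a filter, 1 with at least 10 counts in every library, 0 with only the libraries compared, and 0 to 3 on leaving out 1 library. Requiring 10 counts in every library lowered the calls over all miRNAs from 195 to 128 in 2i and from 211 to 135 in ground state against serum, with fewer miRNAs tested. For arm ratios over all hairpins, a pseudocount of 5 gave 8 calls in 2i, 8 in R2i and 9 in ground state against serum, and requiring 10 counts of both arms gave 1 in 2i and 1 in ground state, where the main count was 0. None of these was a hairpin of the cluster.

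Among single values, these changed sign. miR-294-5p went to 0.0047 (TMM without the cluster) and 0.013 (10 counts in every library) in 2i, to 0.0062 (library totals) and 0.042 (only the libraries compared) in R2i, and to 0.0025 (10 counts in every library) in ground state against serum. miR-291a-5p went to 0.0061 (library totals) and 0.046 (only the libraries compared) in R2i. On leaving out 1 library, the log2 fold change of miR-294-5p ranged from -0.31 to 0.26 in 2i, -0.32 to 0.24 in R2i and -0.31 to 0.25 in ground state. That of miR-295-5p ranged from -0.41 to 0.058 in 2i, those of miR-291a-5p and miR-293-5p from -0.17 to 0.012 and -0.45 to 0.036 in R2i, and that of miR-291a-5p from -0.15 to 0.0027 in ground state. Arm ratio changes in ground state ranged from -0.19 to 0.023 for miR-291a, -0.055 to 0.41 for miR-291b, -0.67 to 0.085 for miR-292a and -0.87 to 0.078 for miR-293. Of 448 single values compared with their main value, 422 kept direction and side of the threshold, 19 changed sign and 7 passed the threshold anew. The share of counts held by the members differed by -6.35 percentage points with the cluster's counts as denominator. With that denominator the difference was -1.95 points without serum RB20 and -10.8 points without serum RB18. Causes were not tested.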
